A study of Mus musculus with 6 samples.

Results

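The 46 genes described here encode proteins that import, fold, glycosylate and clear polypeptides in the endoplasmic reticulum (ER). They were chosen by symbol as known ER genes, with earlier results of these data known but no threshold on the measured values. The genes fall into 6 classes, and counts over them are description and not a test. These classes hold 11 chaperones and co-chaperones, 7 enzymes of disulfide bond formation, 12 genes of the translocon and signal peptidase, 5 subunits of the oligosaccharyltransferase, 9 genes of ER-associated degradation (ERAD) and 2 stress sensors. All 46 were measured, out of 19818 genes in all, and each was read from its brightest feature by the mean over the arrays.

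Expression was measured on Affymetrix mouse ST 1.0 arrays in mature B cells from mouse spleen. The cells were activated, spin-infected with retrovirus, returned to mitogen for 36 hours, and kept for another 24 hours in medium free of mitogen, with no anti-CD40. Every group was then sorted for EGFP, so that the control cells also carried a viral vector and had passed through the same sort. The 3 groups of 2 arrays each were EV, the empty GFP vector, IKK_K171E, a vector with the K171E form of IKK, and MYD88_L265P, a vector with the L265P form of MYD88. MYD88 passes signals from Toll-like receptors on to NF-κB, and IKK is the kinase that releases NF-κB from its inhibitors. The labels do not say which IKK subunit was used, and the promoter of the vector and the strain, age and number of the mice are not given in the sources used here. The arrays of a group are labelled as biological replicates without naming separate animals, so p-values measure the spread between these arrays, which may be technical in part.

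The transduced genes were read first as a check of the labels. Myd88 stood at 9.30 and 9.35 (log2 signal) in EV, 9.43 and 9.14 in IKK_K171E, and 12.25 and 12.31 in MYD88_L265P. Ikbkb, which encodes an IKK catalytic subunit, stood at 9.98 and 10.22 in EV, 11.35 and 10.68 in IKK_K171E, and 9.69 and 9.68 in MYD88_L265P. Both IKK_K171E arrays were above both EV arrays for Ikbkb, with a log2 difference of 0.91 (limma adjusted p = 0.0848) that did not pass the threshold of 0.05. B cell markers were bright on every array, with the mean of 7 markers between 11.42 and 12.02.

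Proteins bound for the cell surface or for secretion enter the ER through the Sec61 channel, lose their signal peptide, receive N-linked glycans and fold with the help of chaperones and disulfide isomerases. Chains that fail to fold are passed back to the cytosol and degraded, the process called ERAD. When unfolded chains build up, the sensors IRE1 (encoded by Ern1), ATF6 and PERK (encoded by Eif2ak3) start the unfolded protein response. IRE1 splices the messenger RNA of Xbp1, and XBP1 and ATF6 switch on many ER genes. In B cells this response is best known from plasma cells, which enlarge their ER as they begin to secrete antibody.

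Stress-inducible ER genes are known for a promoter element called ERSE, read as CCAAT, any 9 bases, then CCACG. A shorter form, ERSE-II, reads ATTGG, any base, then CCACG, and the element UPRE reads TGACGTGG. These motifs were searched on both strands of the RefSeq promoter windows of build GRCm38.p6, which run from 250 bases before to 50 bases after each start site. Only exact matches inside a window were counted, so near matches and sites further away would be missed. Promoter windows were found for 38 of the 46 genes, of which 33 had 1 window. Hspa5, which encodes the ER chaperone BiP, Hsp90b1 with 2 copies of the element, Pdia6 with one of the highest differences in signal, and Syvn1 with a difference close to 0 are shown to let the elements be seen in place. Each sequence is the 250 bases before the start site, 5′ to 3′ on the strand of the gene, with ERSE in capitals.
Hspa5, chr2:34771840-34772089 on the plus strand: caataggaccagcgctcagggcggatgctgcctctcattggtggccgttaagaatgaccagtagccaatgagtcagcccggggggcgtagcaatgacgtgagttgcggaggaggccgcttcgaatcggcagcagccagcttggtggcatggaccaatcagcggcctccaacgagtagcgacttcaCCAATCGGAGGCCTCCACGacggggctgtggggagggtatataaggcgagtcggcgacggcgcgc
Hsp90b1, chr10:86705445-86705694 on the minus strand: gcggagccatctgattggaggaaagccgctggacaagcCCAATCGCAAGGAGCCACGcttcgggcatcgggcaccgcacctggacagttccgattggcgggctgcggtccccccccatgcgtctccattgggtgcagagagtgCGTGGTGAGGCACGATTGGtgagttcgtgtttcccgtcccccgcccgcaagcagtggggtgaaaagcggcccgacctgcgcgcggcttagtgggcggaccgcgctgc
Pdia6, chr12:17266339-17266588 on the plus strand: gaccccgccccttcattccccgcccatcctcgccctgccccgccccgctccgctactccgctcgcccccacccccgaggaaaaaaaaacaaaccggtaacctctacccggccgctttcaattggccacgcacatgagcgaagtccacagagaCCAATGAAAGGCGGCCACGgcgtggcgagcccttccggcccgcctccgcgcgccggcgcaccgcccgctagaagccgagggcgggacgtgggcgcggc
Syvn1, chr19:6046326-6046575 on the plus strand: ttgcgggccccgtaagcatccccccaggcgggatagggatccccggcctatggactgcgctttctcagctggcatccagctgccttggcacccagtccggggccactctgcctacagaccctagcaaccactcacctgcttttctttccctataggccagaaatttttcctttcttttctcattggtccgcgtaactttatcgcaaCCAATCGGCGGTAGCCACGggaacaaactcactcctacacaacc

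The first copy in Hsp90b1 lies on the strand of the gene and the second on the other strand, where it appears as the reverse complement. The elements of all genes with a match to ERSE or ERSE-II follow, each read in the direction of the motif, with the bases that the motif fixes in capitals. They are shown because they let the spacer, which the motif leaves free, be compared between genes.
Calr, ERSE: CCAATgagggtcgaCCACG
Canx, ERSE: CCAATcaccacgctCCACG
Creld2, ERSE: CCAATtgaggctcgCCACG
Derl3, ERSE: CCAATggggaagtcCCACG
Dnajb11, ERSE-II: ATTGGcCCACG
Dnajc3, ERSE: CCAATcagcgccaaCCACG
Herpud1, ERSE-II: ATTGGgCCACG
Hsp90b1 first copy, ERSE: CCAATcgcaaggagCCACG
Hsp90b1 second copy, ERSE: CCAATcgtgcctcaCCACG
Hspa5, ERSE: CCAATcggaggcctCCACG
Pdia6, ERSE: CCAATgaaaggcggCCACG
Syvn1, ERSE: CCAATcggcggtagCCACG

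ERSE was found in 9 of 38 genes (23.7%), against 37 of the 27025 genes in the promoter table (0.137%). ERSE-II was found in Dnajb11 and Herpud1, which is 5.26% of 38 against 0.0444% of all genes in the table. UPRE was found in Txndc5 and Txndc11, which is also 5.26%, against 0.714%. The pentamer CCACG, which lies inside ERSE and ERSE-II, was in 33 of 38 genes (86.8%) against 35.5% of the table. Of the protein-coding genes in the table, 0.166% held ERSE, 0.0629% ERSE-II, 0.823% UPRE and 40.4% CCACG. Matches to ERSE or ERSE-II were found in 6 of 9 chaperone genes, 2 of 7 disulfide genes and 3 of 8 ERAD genes with a window, and in none of the other 14. ERSE is known from stress-inducible ER genes and the genes here were chosen as known ER genes, so the shares are description and not a test. A match describes letters in a window and does not show that a factor binds there.

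The ER genes were higher in MYD88_L265P than in EV as a broad group. Of 46 genes, 32 were called higher (69.6%), 1 was called lower (Stt3b) and 13 did not pass, where a call is a limma adjusted p below 0.05. Of all 21542 features tested, 9.32% were called higher and 7.33% lower. The median log2 difference was 0.59 over the 46 genes and -0.11 over all features. Both MYD88_L265P arrays were above both EV arrays for 44 of the 46 genes and below them for 1, against 23.2% and 47.9% of all features. The changes were mostly moderate, since 6 genes were called with at least a 2-fold rise, namely Creld2, Pdia6, Sdf2l1, Hyou1, Manf and Rpn1, against 1.80% of all features.

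The genes are bright on these arrays, and bright features were more often called. Among the 5386 brightest features, those with a mean log2 signal above 9.37, 22.2% were called higher and the median difference was 0.09. Of the 46 genes, 41 lay among these features, and 30 of them were called higher, 1 lower, with a median difference of 0.59. The mean over the 46 genes was 10.30 and 10.34 on the EV arrays, 10.55 and 10.31 on the IKK_K171E arrays, and 10.99 and 10.90 on the MYD88_L265P arrays. The MYD88_L265P arrays were the highest, and 1 IKK_K171E array lay within the range of EV while the other lay above it. In tissue or sorted cells read in bulk, more cells of a type and more RNA per cell cannot be told apart.

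**Figure D1:**
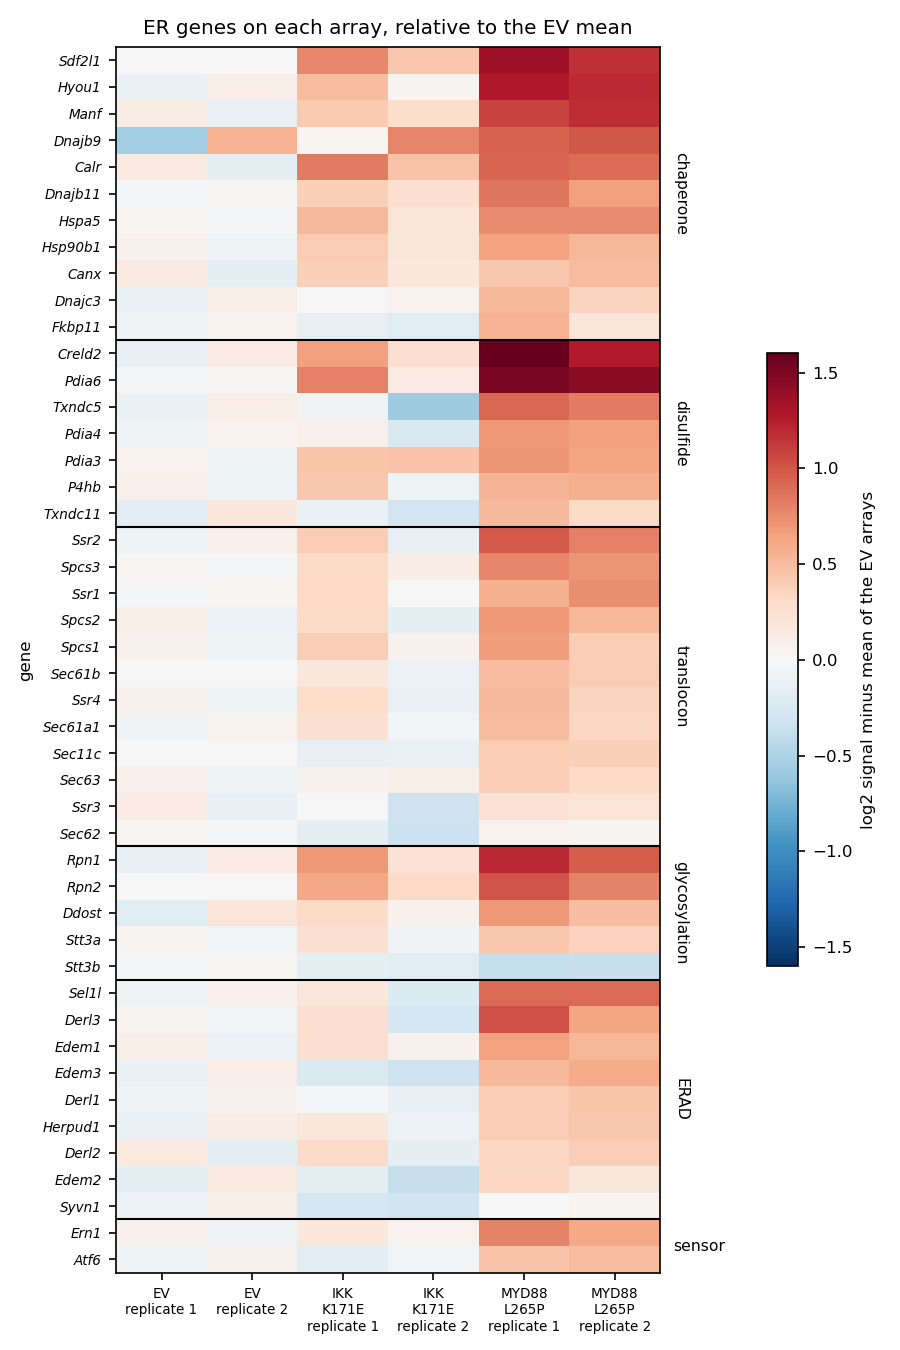
Log2 signal of the 46 ER genes on each of the 6 arrays, relative to the mean of the EV arrays, in colour from blue (lower) through white to red (higher), with genes grouped by class and ordered by their difference. The MYD88_L265P columns are red for nearly every gene, Stt3b is blue in both, and IKK_K171E replicate 1 is redder than replicate 2.

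The number of calls rested on having both arrays of a group. Without MYD88_L265P replicate 1, 3 genes were called higher (1.25% of all features), and without replicate 2, 4 genes (0.659%). Fewer genes were called without either EV array than in the reported fit. The difference was positive for 44 of the 46 genes without EV replicate 1 and for 45 without EV replicate 2. The medians over all features were then -0.11 and -0.10. Without either IKK_K171E array the difference was positive for 45 genes, with a median over all features of -0.11. Creld2, Manf and Sdf2l1 were called in all of these fits. After quantile normalization 24 genes were called in either direction, and after each array was set to a common median 36 were.

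Among the chaperones, 9 of 11 were called higher in MYD88_L265P than in EV and none lower, with a median log2 difference of 0.76. Sdf2l1, a stress-induced partner of BiP, stood at 9.39 and 9.39 in EV, 10.16 and 9.82 in IKK_K171E, and 10.75 and 10.56 in MYD88_L265P. The 3 groups did not overlap, and the difference between MYD88_L265P and EV was 1.26 (SE 0.13, adjusted p = 0.0044), or 2.40-fold. Hyou1, a large chaperone that also serves BiP as nucleotide exchange factor, stood at 8.93 and 9.13 in EV, 9.53 and 9.08 in IKK_K171E, and 10.31 and 10.23 in MYD88_L265P. Here the IKK_K171E arrays overlapped EV and the MYD88_L265P arrays stood apart, 1.24 above EV (SE 0.16, adjusted p = 0.00626).

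Manf, a stress-induced protein that binds BiP and can be secreted, was at 9.22 and 8.97 in EV, 9.52 and 9.38 in IKK_K171E, and 10.18 and 10.28 in MYD88_L265P. It rose by 1.13 (SE 0.11, adjusted p = 0.00425), with both MYD88_L265P arrays the highest of the 6. Hspa5 itself was at 11.52 and 11.45 in EV, 12.01 and 11.70 in IKK_K171E, and 12.25 and 12.24 in MYD88_L265P. Its difference from EV was 0.75 (SE 0.12, adjusted p = 0.0107), and the groups were ordered EV, IKK_K171E, MYD88_L265P with no overlap. The lectin chaperone Calr rose by 0.91 and its membrane-bound relative Canx by 0.47. Hsp90b1, the HSP90 of the ER, rose by 0.59, and the co-chaperones Dnajb11 and Dnajc3 rose by 0.76 and 0.44.

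The remaining chaperones did not pass. Fkbp11, a prolyl isomerase, had the smallest difference of the class and stood at 7.69 and 7.81 in EV, 7.62 and 7.55 in IKK_K171E, and 8.30 and 7.93 in MYD88_L265P. Its difference of 0.36 had a 95% interval of 0.05 to 0.68 (adjusted p = 0.0953), although both MYD88_L265P arrays were the highest. Dnajb9, a co-chaperone of BiP, stood at 8.74 and 9.86 in EV, 9.34 and 10.08 in IKK_K171E, and 10.24 and 10.30 in MYD88_L265P. Its replicates lay far apart in EV and in IKK_K171E, and the difference of 0.97 had an SE of 0.36 (adjusted p = 0.100).

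The disulfide class had 5 of 7 genes called higher, none lower, and a median difference of 0.67. Creld2, an ER protein with disulfide isomerase activity, stood at 9.63 and 9.89 in EV, 10.42 and 10.04 in IKK_K171E, and 11.47 and 11.04 in MYD88_L265P. It had the highest difference of all 46 genes, 1.49 (SE 0.19, adjusted p = 0.00624), or 2.80-fold. Pdia6, a protein disulfide isomerase that works with BiP, stood at 9.79 and 9.84 in EV, 10.63 and 9.95 in IKK_K171E, and 11.33 and 11.27 in MYD88_L265P. In both genes IKK_K171E lay between the other groups on every array, with replicate 1 well above replicate 2, and Pdia6 was 1.48 above EV in MYD88_L265P (SE 0.20, adjusted p = 0.00748).

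Txndc5, a thioredoxin-like oxidase of nascent chains, had another pattern. It stood at 9.24 and 9.45 in EV, 9.28 and 8.77 in IKK_K171E, and 10.26 and 10.18 in MYD88_L265P. It rose by 0.88 over EV (SE 0.17, adjusted p = 0.0185), and the IKK_K171E arrays reached no higher than the EV range. Pdia4 was at 10.94 and 11.04 in EV, 11.07 and 10.75 in IKK_K171E, and 11.68 and 11.65 in MYD88_L265P, a rise of 0.67 (adjusted p = 0.0156). Pdia3, which folds glycoproteins together with calreticulin and calnexin, rose by 0.67.

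P4hb, the best known protein disulfide isomerase, had a difference of 0.56 that missed the threshold (95% interval 0.17 to 0.94, adjusted p = 0.0581). Txndc11 had the smallest difference of the class, 0.42 (95% interval 0.07 to 0.77, adjusted p = 0.0866), from 9.05 and 9.42 in EV, 9.13 and 8.93 in IKK_K171E, and 9.75 and 9.56 in MYD88_L265P. The MYD88_L265P arrays were the highest for Txndc11 as well.

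In the translocon class 8 of 12 genes were called higher and none lower, with a median difference of 0.44. Ssr2, a subunit of the translocon-associated protein complex, stood at 10.35 and 10.51 in EV, 10.82 and 10.29 in IKK_K171E, and 11.41 and 11.23 in MYD88_L265P. It rose by 0.89 (SE 0.17, adjusted p = 0.0194), while the IKK_K171E arrays lay on either side of EV. Spcs3, a subunit of the signal peptidase that removes signal peptides, was at 10.95 and 10.88 in EV, 11.22 and 11.04 in IKK_K171E, and 11.70 and 11.63 in MYD88_L265P. The groups did not overlap, and the rise over EV was 0.75 (SE 0.10, adjusted p = 0.00714). Ssr1 was at 10.33 and 10.40 in EV, 10.68 and 10.35 in IKK_K171E, and 10.93 and 11.11 in MYD88_L265P, a rise of 0.66 (adjusted p = 0.0199).

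The other signal peptidase subunits moved in the same direction, with Spcs2 up by 0.61, Spcs1 by 0.53 and the catalytic subunit Sec11c by 0.39. Sec11c stood at 10.89 and 10.86 in EV, 10.75 and 10.75 in IKK_K171E, and 11.28 and 11.26 in MYD88_L265P, so that its replicates differed by little in every group. Of the channel subunits, Sec61b rose by 0.45, and its 2 dimmer features gave 0.91 and 0.77. Sec61a1, the pore itself, had a difference of 0.42 that did not pass (adjusted p = 0.0572).

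Sec63, which couples BiP to the channel, rose by 0.35. Its partner Sec62 had the smallest difference of the class, 0.05 (95% interval -0.18 to 0.28, adjusted p = 0.709), which was -0.10 after quantile normalization. Sec62 stood at 9.89 and 9.84 in EV, 9.72 and 9.51 in IKK_K171E, and 9.92 and 9.91 in MYD88_L265P, with the IKK_K171E arrays the lowest. Ssr3 and Ssr4 had differences of 0.23 and 0.44 that did not pass.

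**Figure D2:**
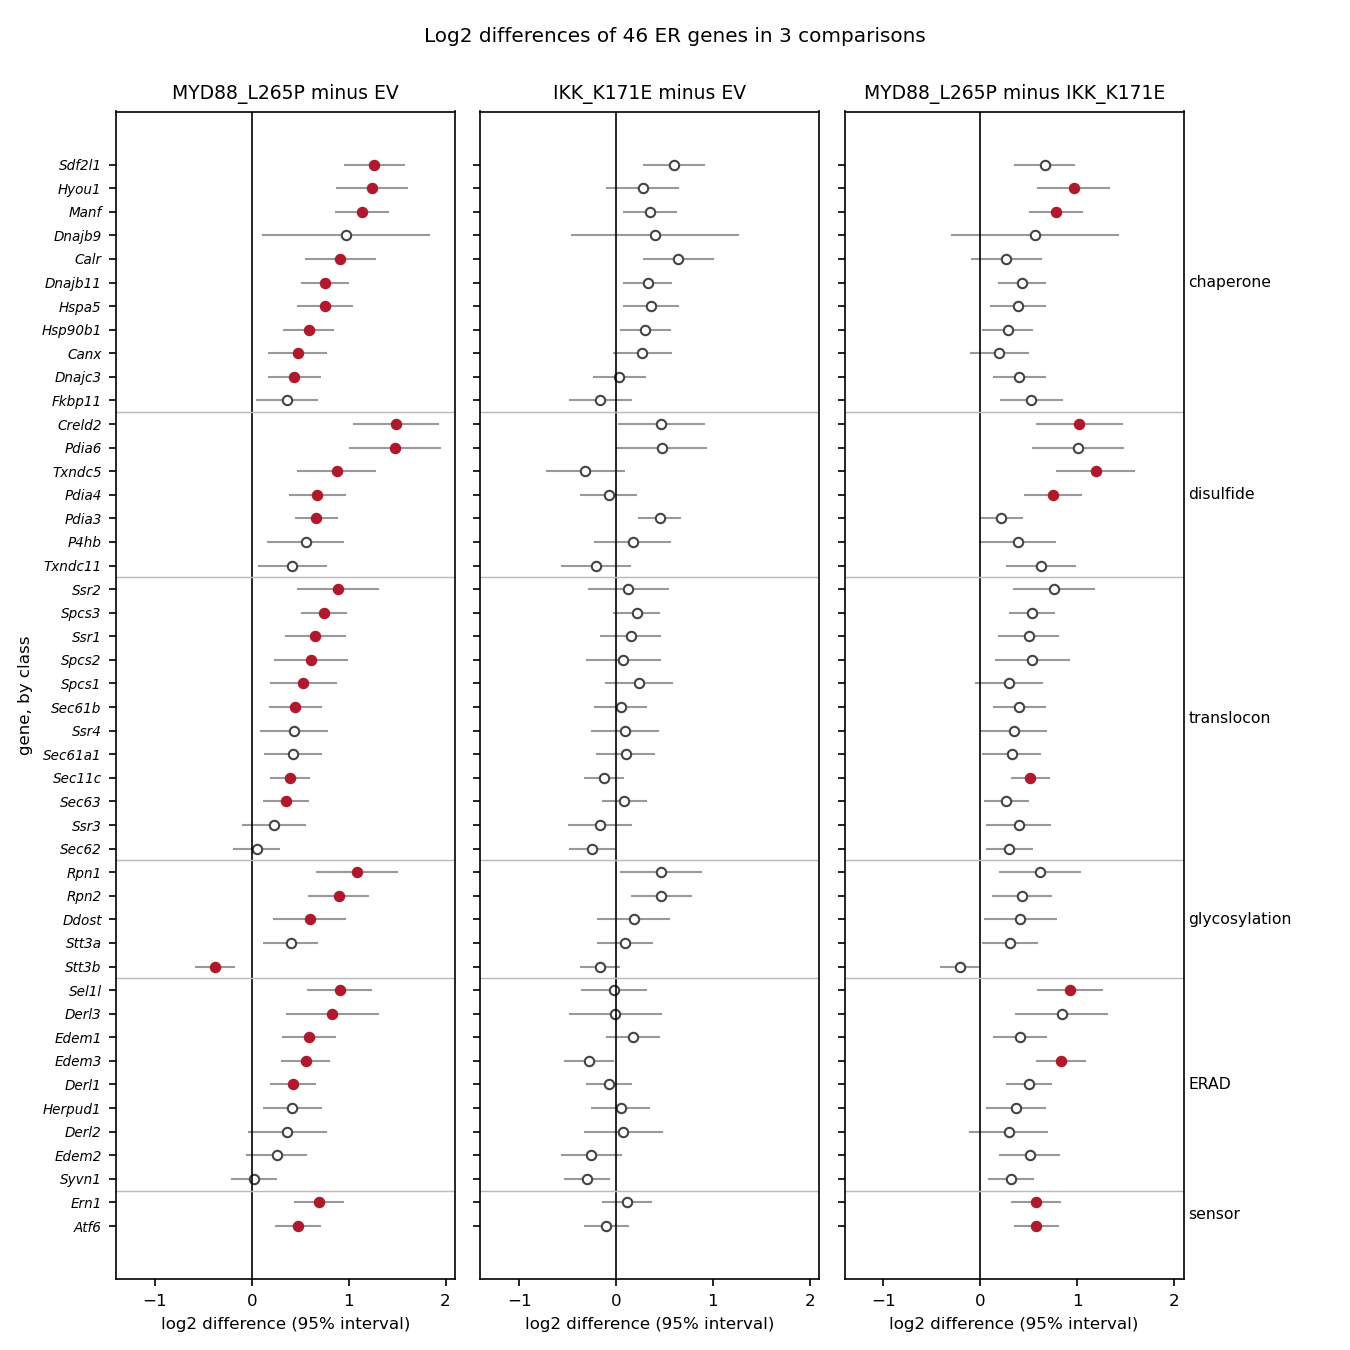
Log2 difference of each of the 46 ER genes in the 3 comparisons, with 95% intervals from limma, grouped by class. Filled red points passed the adjusted p threshold of 0.05 and open points did not: 33 are filled for MYD88_L265P minus EV, 0 for IKK_K171E minus EV and 10 for MYD88_L265P minus IKK_K171E.

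The oligosaccharyltransferase transfers the glycan to the nascent chain, and its 5 subunits on the list did not move as one. Rpn1 stood at 9.84 and 10.10 in EV, 10.67 and 10.20 in IKK_K171E, and 11.17 and 10.94 in MYD88_L265P. Rpn2 stood at 10.08 and 10.08 in EV, 10.71 and 10.40 in IKK_K171E, and 11.09 and 10.87 in MYD88_L265P. In both genes, which encode ribophorins, the groups were ordered EV, IKK_K171E, MYD88_L265P without overlap, and the rises over EV were 1.08 (SE 0.17, adjusted p = 0.0116) and 0.90 (SE 0.13, adjusted p = 0.00865).

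Ddost, a further structural subunit, was at 9.40 and 9.80 in EV, 9.90 and 9.67 in IKK_K171E, and 10.30 and 10.10 in MYD88_L265P, a rise of 0.60 (adjusted p = 0.0428). The catalytic subunit exists as STT3A, which works beside the translocon, and STT3B, which can also act later. Stt3a stood at 12.04 and 11.96 in EV, 12.24 and 11.94 in IKK_K171E, and 12.43 and 12.37 in MYD88_L265P, a difference of 0.40 that did not pass (adjusted p = 0.0576). Stt3b went the other way, from 11.71 and 11.74 in EV through 11.58 and 11.54 in IKK_K171E to 11.34 and 11.35 in MYD88_L265P. It fell by 0.38 (SE 0.08, adjusted p = 0.0265), the only fall among the 46 genes. When each array was set to a common median, which moved the median of all features from -0.11 to -0.02, the Stt3b difference was -0.29 and did not pass (adjusted p = 0.0581).

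The ERAD class had 5 of 9 genes called higher, none lower, and a median difference of 0.43. Sel1l, the membrane adaptor of the ubiquitin ligase HRD1, stood at 10.14 and 10.30 in EV, 10.40 and 10.00 in IKK_K171E, and 11.12 and 11.13 in MYD88_L265P. It rose by 0.91 (SE 0.14, adjusted p = 0.0104), with IKK_K171E spread around EV. Syvn1, which encodes HRD1 itself, stood at 10.47 and 10.66 in EV, 10.28 and 10.25 in IKK_K171E, and 10.55 and 10.61 in MYD88_L265P. Its MYD88_L265P arrays lay between the EV arrays, and the difference was 0.02 (95% interval -0.21 to 0.25, adjusted p = 0.892), or -0.13 after quantile normalization.

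Derl3, a derlin of the retrotranslocation machinery, stood at 8.74 and 8.65 in EV, 8.96 and 8.41 in IKK_K171E, and 9.73 and 9.33 in MYD88_L265P. It rose by 0.83 (SE 0.20, adjusted p = 0.034), and its relative Derl1 rose by 0.43, whereas Derl2 had a difference of 0.37 that did not pass. The EDEM proteins trim mannose from glycans of misfolded chains. Edem1 stood at 10.79 and 10.59 in EV, 10.96 and 10.76 in IKK_K171E, and 11.33 and 11.22 in MYD88_L265P, a rise of 0.59 (adjusted p = 0.019).

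Edem3 stood at 10.20 and 10.42 in EV, 10.08 and 9.98 in IKK_K171E, and 10.83 and 10.90 in MYD88_L265P. It rose by 0.56 over EV (adjusted p = 0.0176), and its IKK_K171E arrays were the lowest of the 6. Edem2 and the scaffold gene Herpud1 had differences of 0.26 and 0.42 that did not pass (adjusted p = 0.183 and 0.0619).

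Both sensors on the list rose. Ern1 stood at 8.32 and 8.19 in EV, 8.43 and 8.31 in IKK_K171E, and 9.04 and 8.86 in MYD88_L265P, a rise of 0.70 (SE 0.11, adjusted p = 0.00995). Atf6 stood at 11.27 and 11.40 in EV, 11.17 and 11.30 in IKK_K171E, and 11.79 and 11.84 in MYD88_L265P, a rise of 0.48 (SE 0.10, adjusted p = 0.0203). For both genes the IKK_K171E arrays overlapped EV and the MYD88_L265P arrays lay above all others.

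The third sensor and the transcription factors were read from a separate list of 13 regulators of the response. Of these, 2 were called higher in MYD88_L265P than in EV and none lower, against 9.32% and 7.33% of all features. Xbp1 stood at 9.19 and 9.06 in EV, 9.41 and 8.95 in IKK_K171E, and 10.49 and 10.27 in MYD88_L265P, a rise of 1.26 (SE 0.16, adjusted p = 0.00657). The arrays measure the total Xbp1 transcript here, and splicing was not analysed. Creb3l2, a membrane-bound transcription factor related to ATF6, stood at 7.52 and 7.56 in EV, 7.55 and 7.36 in IKK_K171E, and 8.18 and 8.06 in MYD88_L265P, and rose by 0.58 (SE 0.10, adjusted p = 0.0151). For both genes the MYD88_L265P arrays stood above the other 4.

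The genes of the PERK branch gave no call. Eif2ak3 stood at 9.94 and 9.84 in EV, 9.35 and 9.61 in IKK_K171E, and 9.67 and 9.59 in MYD88_L265P, a difference of -0.26 (95% interval -0.52 to 0.00, adjusted p = 0.130). Atf4, its main transcription factor, stood at 9.46 and 9.76 in EV, 9.47 and 9.42 in IKK_K171E, and 9.88 and 9.98 in MYD88_L265P, a difference of 0.32 (95% interval 0.04 to 0.60, adjusted p = 0.0947). Ddit3, which encodes the pro-apoptotic factor CHOP, stood at 9.29 and 10.03 in EV, 9.39 and 9.67 in IKK_K171E, and 9.51 and 9.46 in MYD88_L265P. Its MYD88_L265P arrays lay inside the EV range, at a difference of -0.18 (95% interval -0.71 to 0.36, adjusted p = 0.573). Ppp1r15a, which encodes a phosphatase subunit of the same branch, had a difference of -0.10 (95% interval -0.55 to 0.35, adjusted p = 0.710). Atf4 is controlled mainly at translation, which these arrays do not measure.

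**Figure D3:**
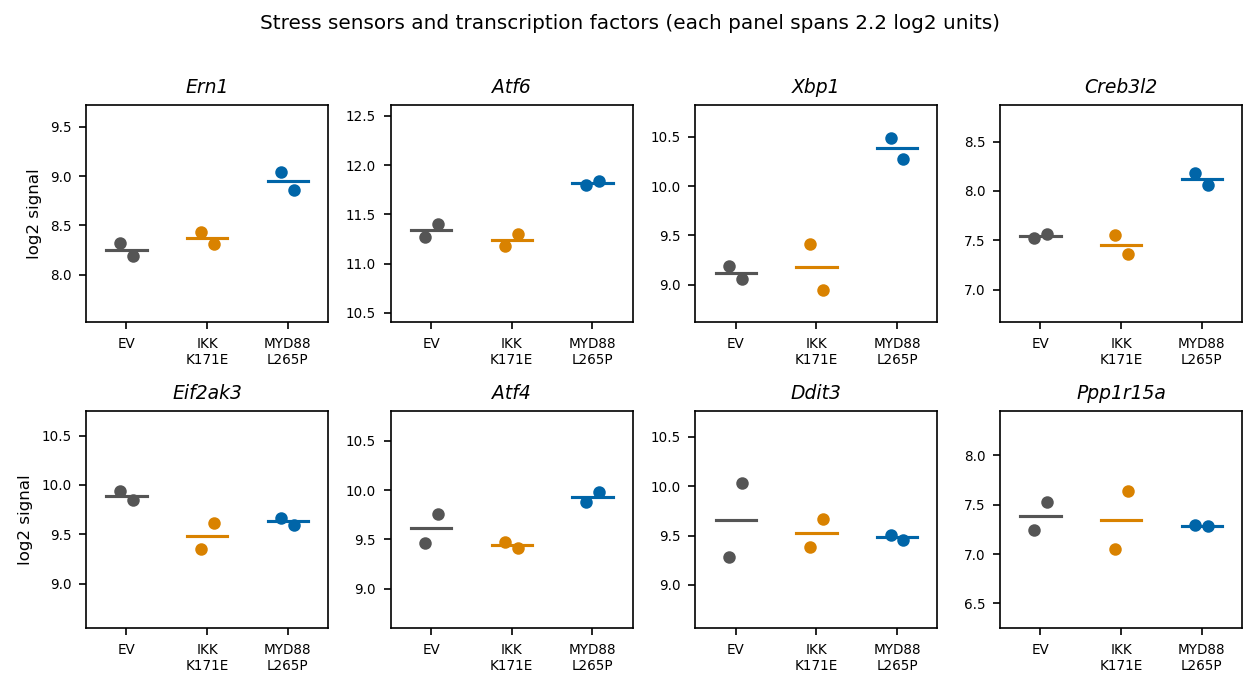
Log2 signal of 8 stress sensors, transcription factors and targets on each array (points) with the group mean (line), each panel spanning the same number of log2 units. The MYD88_L265P points of Ern1, Atf6, Xbp1 and Creb3l2 lie above all others, and so do those of Atf4, whose difference was not called. Those of Ddit3 and Ppp1r15a lie within the range of EV.

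Further ER genes outside the 46 were read from 6 lists. Of 106 listed genes 99 were measured. In MYD88_L265P against EV 33 of them were called higher (33.3%) and 3 lower, with a median difference of 0.19. Over all features 9.32% were called higher and 7.33% lower, and among the brightest features 22.2% were called higher. The share was highest among translocation and signal recognition genes, with 9 of 15 higher, and N-glycosylation genes, with 10 of 25. It was lower among ERAD genes (7 of 22), chaperones and prolyl isomerases (3 of 12) and disulfide enzymes (2 of 12). The counts for the chaperone and disulfide lists lay near the share among bright features. Tram2, a membrane protein beside the translocon, rose by 1.23 and Hspa13, an ER-associated HSP70 relative, by 1.27 (adjusted p = 0.00396 and 0.00783). Get1, which inserts tail-anchored proteins, rose by 0.76. Ostc, an oligosaccharyltransferase subunit, rose by 1.05 and Alg8, a glucosyltransferase of the glycan precursor, by 0.94.

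In the remaining lists Ero1a, the oxidase that recharges disulfide isomerases, rose by 0.76 and the peroxiredoxin Prdx4 by 0.74. Fkbp2, an ER prolyl isomerase, rose by 0.72. Selenos and Selenok, selenoproteins of the ERAD machinery, rose by 0.87 and 0.76. The 3 falls were Sdf2 by 0.83, Aup1 by 0.62 and Herpud2 by 0.44.

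Closely related genes did not always move together. The 8 pairs set side by side here were picked after their values were seen, and they serve as description. Sdf2l1 rose by 1.26 and its relative Sdf2 fell by 0.83, from 10.37 and 10.83 in EV and 10.16 and 10.22 in IKK_K171E to 9.74 and 9.80 in MYD88_L265P. Magt1, an oxidoreductase subunit of the oligosaccharyltransferase, rose by 0.74, and its alternative Tusc3 had a difference of -0.26 (adjusted p = 0.0799). Sec11c rose by 0.39, and the other catalytic signal peptidase subunit Sec11a had a difference of 0.10 (adjusted p = 0.529). Herpud2 fell by 0.44 and Herpud1 had a difference of 0.42 (adjusted p = 0.0619). Ero1a rose, and Ero1b had a difference of -0.48 (adjusted p = 0.0519). Tram1 and Tram2 both rose, by 0.43 and 1.23. Differences between the genes of a pair were not tested.

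**Figure D4:**
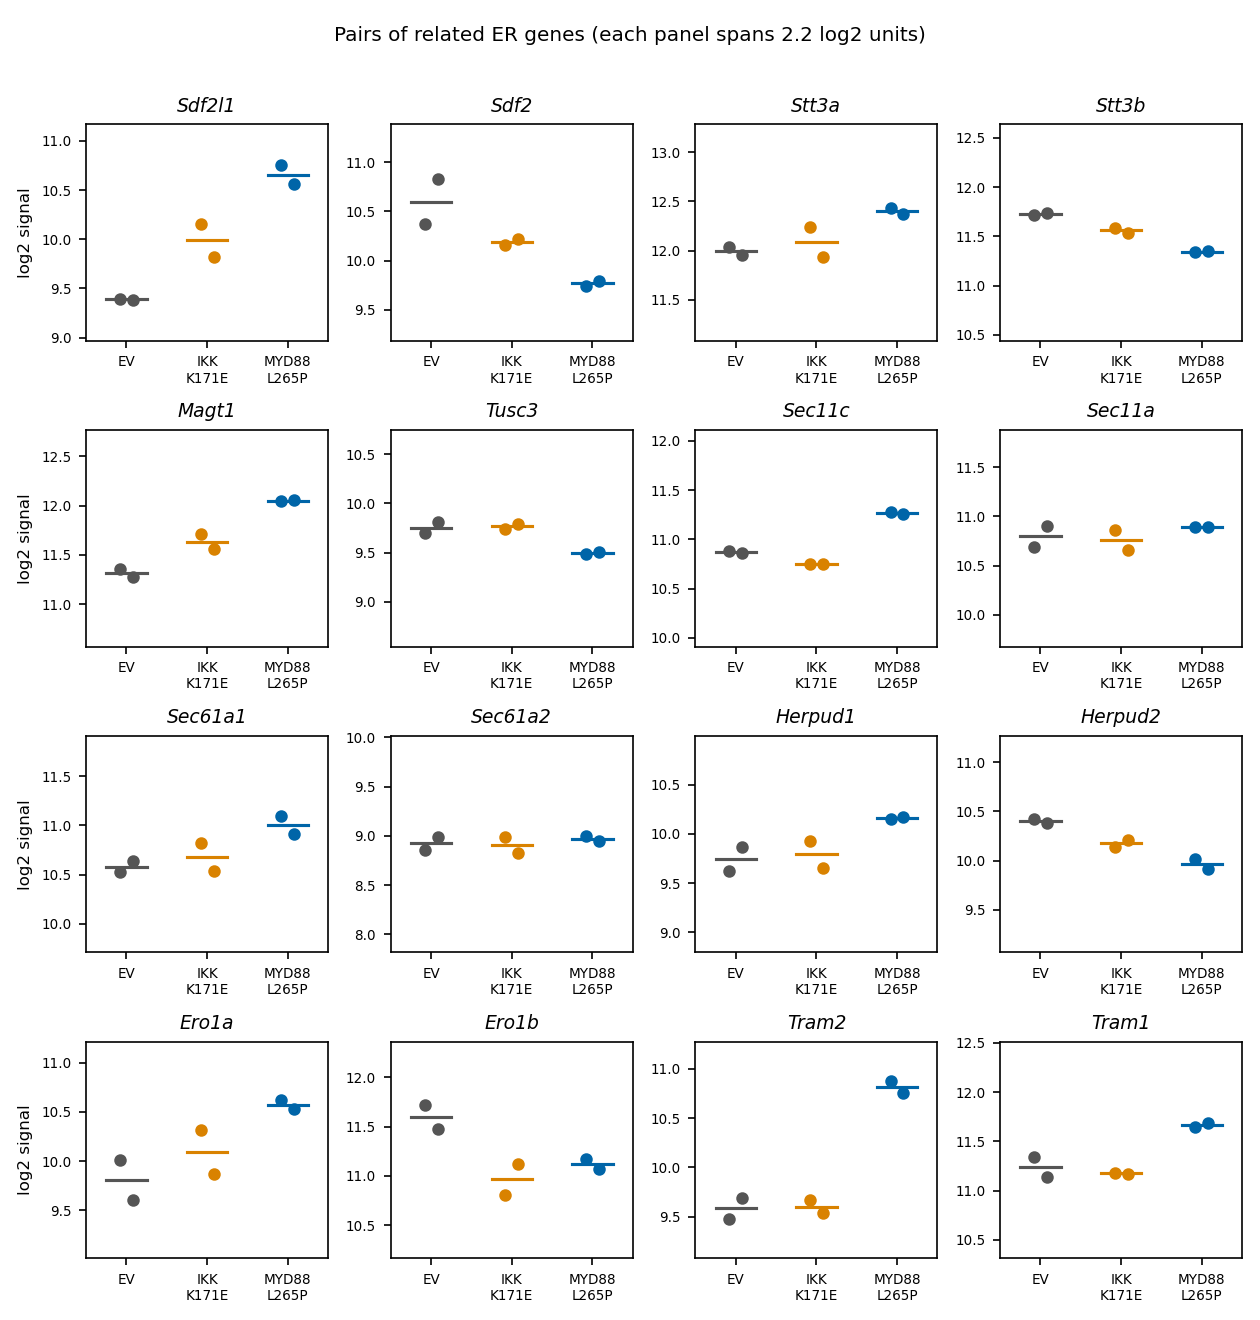
Log2 signal of 8 pairs of related ER genes on each array (points) with the group mean (line), each panel spanning the same number of log2 units. Sdf2l1 and Sdf2, Stt3a and Stt3b, and Herpud1 and Herpud2 lie in opposite orders across the 3 groups, and Tram1 and Tram2 are both highest in MYD88_L265P.

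No ER gene of the 46 was called higher or lower in IKK_K171E than in EV by limma, against 0.956% and 0.413% of all features. An unadjusted p below 0.05 was reached by 14 genes, 11 with a positive and 3 with a negative difference. The share of all features that reach it was not counted, so these counts are not read as a result. Both IKK_K171E arrays were above both EV arrays for 13 genes and below them for 7, against 17.6% and 28.4% of all features. With the replicate number as a block in the fit, 2 genes were called higher and 0 lower, against 2.14% of all features called higher. The median difference was 0.10, against -0.04 over all features. The smallest adjusted p was that of Pdia3, 0.0663, at a difference of 0.45 (95% interval 0.24 to 0.66), followed by Sdf2l1 at 0.60 (0.0789) and Calr at 0.64 (0.0914).

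By class, the median difference was 0.33 for chaperones, 0.18 for glycosylation, 0.17 for disulfide enzymes, 0.09 for translocon genes and -0.02 for ERAD. The lowest values were those of Txndc5 (-0.32), Syvn1 (-0.30) and Edem3 (-0.28), none of which passed. The IKK_K171E replicates differed in these genes. Replicate 1 was higher than replicate 2 for 40 of 46 genes, by a median of 0.27, while over all features replicate 1 was higher in 47.6%. Ikbkb also stood higher in replicate 1 (11.35) than in replicate 2 (10.68), and its part in these values was not tested. Without IKK_K171E replicate 1 the median difference from EV was -0.041 with 0 calls, and without replicate 2 it was 0.27 with 2 genes called, Sdf2l1 and Pdia6.

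MYD88_L265P was also compared with IKK_K171E directly. Of 46 genes, 10 were called higher (21.7%) and none lower, against 0.873% and 0.877% of all features, and the median difference was 0.47 against -0.05. These 10 genes had also been called higher than EV. Both MYD88_L265P arrays were above both IKK_K171E arrays for 44 genes, against 20.9% of all features.

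The differences from IKK_K171E that passed spread over most classes. Txndc5 was 1.19 higher (adjusted p = 0.0228), Creld2 1.02 higher (0.0484) and Pdia4 0.75 higher (0.035). A dimmer feature of Pdia4 gave 0.59 and did not pass (limma adjusted p = 0.137). Among chaperones Hyou1 was 0.97 higher (0.0349) and Manf 0.78 higher (0.0253). In ERAD, Sel1l was 0.93 higher (0.0281) and Edem3 0.84 higher (0.0174). Sec11c was 0.52 higher (0.0332), and the sensors Atf6 and Ern1 were each 0.58 higher (0.0373 and 0.0489). Pdia6, at 1.01 higher, missed the threshold (adjusted p = 0.0606).

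No oligosaccharyltransferase subunit was called in this comparison, and Stt3b had a difference of -0.21 (adjusted p = 0.228). Most calls of this comparison were lost when 1 array of either group was left out, and calls over all features fell as well. The difference was positive for 45 of the 46 genes in each of these fits. Of the other 99 ER genes, 5 were called higher and 0 lower, against 0.873% and 0.877% of all features. Among the 5 were Xbp1 at 1.20 higher (adjusted p = 0.0198) and Tram2 at 1.22 higher (0.00703). Ordered by group means, 31 of the 46 genes ran from EV through IKK_K171E to MYD88_L265P, 14 had IKK_K171E lowest and MYD88_L265P highest, and Stt3b ran from MYD88_L265P up to EV.

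Differences in signal can be set beside the promoter elements shown above. Of the 11 genes with ERSE or ERSE-II, 9 were called higher in MYD88_L265P than in EV, with a median difference of 0.75 and a range from 0.02 to 1.49. Of the 27 genes with a window and neither element, 16 were called higher and 1 lower, with a median of 0.56 and a range from -0.38 to 1.26. The ranges overlapped from 0.02 to 1.26, and a link between element and difference was not tested. For comparison, 9.32% of all features were called higher and 7.33% lower, and 22.2% of the brightest features were called higher. Either element was found in 49 genes of the promoter table. Calls among those outside the ER genes chosen here were not counted. Creld2 and Pdia6, with the highest differences, carry ERSE, and so does Syvn1, whose difference was 0.02. Sdf2l1 and Edem3 are examples of genes called higher whose windows hold no exact match to either element.

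**Figure D5:**
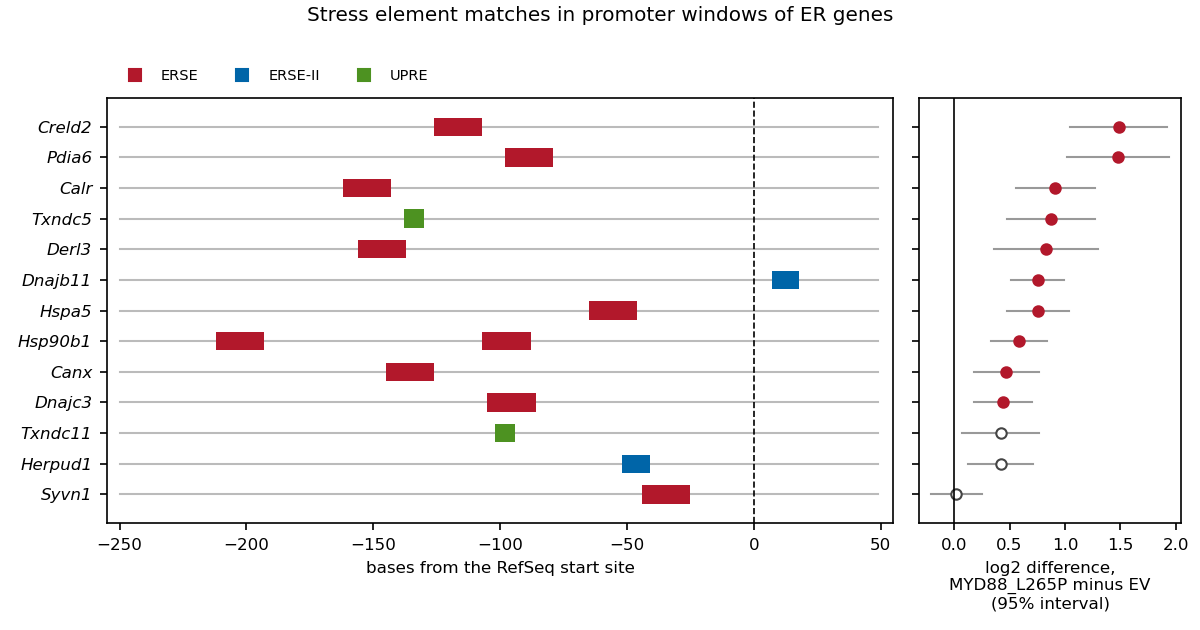
Positions of ERSE (red), ERSE-II (blue) and UPRE (green) matches from 250 bases before to 50 bases after the RefSeq start site (left), beside the log2 difference of each gene between MYD88_L265P and EV with its 95% interval (right; filled, called; open, not called). Elements lie between positions -212 and 17 from the start, and genes with an element range from Creld2 at 1.49 to Syvn1 at 0.02.

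Markers of plasma cells, the B cell stage known for high ER content, gave mixed results. Over 8 plasma cell markers the mean log2 signal was 9.05 and 9.20 in EV, 9.39 and 8.83 in IKK_K171E, and 10.10 and 9.87 in MYD88_L265P. Of the 8, 3 were called higher in MYD88_L265P than in EV, against 9.32% of all features. These were Prdm1 by 2.47 (SE 0.22, limma adjusted p = 0.00396), Jchain by 2.22 (SE 0.60, limma adjusted p = 0.0474) and Xbp1. The replicates of Jchain lay far apart in EV (8.86 and 9.81) and in IKK_K171E (10.16 and 8.18). Irf4 had a difference of 0.83 that did not pass, and the surface markers Sdc1 and Tnfrsf17 had differences of -0.12 each. Mzb1 and Slamf7 had differences of 0.31 and 0.03 that did not pass either. Xbp1 and Mzb1 are also on the ER lists above. Over the 7 B cell markers the mean was 12.01 and 12.02 in EV, 11.58 and 11.67 in IKK_K171E, and 11.42 and 11.50 in MYD88_L265P. Of these markers, 4 were called lower in MYD88_L265P than in EV, against 7.33% of all features. Their part in the result was not tested.

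Markers of other cells the sort could hold were read from 28 genes of T cells, monocytes and macrophages, neutrophils, NK cells and erythroid cells. None was called higher in MYD88_L265P than in EV and 7 were called lower, against 9.32% and 7.33% of all features. The difference was positive for 5 of the 28, and 4 of these were monocyte and macrophage markers. The 7 monocyte and macrophage markers averaged 9.12 and 9.30 in EV, 9.82 and 9.54 in IKK_K171E, and 9.15 and 8.91 in MYD88_L265P. They were highest in IKK_K171E, where Csf1r was called higher and Adgre1 lower than in EV, and their part in the IKK_K171E values was not tested.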

How the data were processed

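The deposited table held log2 expression values per feature for 6 arrays, processed by the authors. Per the submitters' processing notes oligo and limma were used; versions, normalization method and genome build are not given in the sources used here. Without detection p-values in the table, dim features could not be told from background, and the number of arrays limits the precision. Array medians lay between 8.03 and 8.13. Differences were taken between arrays within a feature. Between features, levels served to pick the brightest feature of a gene, to set bright features apart and to call markers bright.

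Features with exactly 1 gene symbol in the platform annotation were tested (21542 of 24743). Group means were fitted to all 6 arrays with limma 3.58.1 in R 4.3.3, with empirical Bayes moderation, 3 contrasts and two-sided p-values adjusted by Benjamini-Hochberg over the 21542 features. The fit was tested on simulated data. The comparisons with EV share its arrays. The members and lists were chosen with earlier results of these data known. Values per array are given for the 3 members of a class with the largest called difference from EV in MYD88_L265P, the smallest difference of the class, every member called in another comparison or lower, and both sensors. From the other ER lists, the 2 largest called genes, any called the opposite way, and Xbp1, Atf4, Ddit3 and Eif2ak3 are named; other names were added after the values were seen. Promoter sequences are from RefSeq, and protein sequences were not used here. Alternatives were replicate block, other normalizations, variance models, filters, gene summaries, a 2-fold threshold and leaving out each array.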

Additional observations from a re-analysis of the deposited data

How the results depend on the processing

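Direction held for most results, and the number of calls depended on the arrays kept. Besides the reported fit, 17 settings were run. In the comparison of MYD88_L265P with EV, the number of ER genes called higher was 6 with a 2-fold threshold and ranged from 3 to 33 when 1 array was left out. The lone array of a group was then assumed to vary like the others. Stt3b, the gene called lower, was not called after scaling to a common median (0 genes) or with a 2-fold threshold (0 genes), and the count ranged from 0 to 1 when 1 array was left out. The median difference of 0.59 was 0.46 after quantile normalization, where 24 genes were called in either direction and Sec62 and Syvn1 were negative. Against EV, the number called higher in IKK_K171E ranged from 0 to 2 and the median from -0.041 to 0.27 when 1 array was left out. In MYD88_L265P against IKK_K171E, 5 genes were called higher when all features were tested and 2 with a 2-fold threshold. Leaving out 1 array gave 0 to 13 genes, and medians from 0.35 to 0.55. Apart from the array counts and thresholds, the cause was not tested.

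The descriptions number the arrays 1 and 2 in every group, and no label says that a number marks a shared animal or day. The titles number replicate 2 as 3 throughout, and replicate 1 as 2 in EV but as 1 in the others, so that titles and descriptions do not match for the first set of arrays. With 2 numbers per group the numbers were not taken as a pairing. By the numbers of the descriptions, deviations from group means correlated at 0.21 between EV and IKK_K171E, 0.10 between EV and MYD88_L265P and 0.14 between IKK_K171E and MYD88_L265P, all positive. With the replicate block, 38 ER genes were called in MYD88_L265P against EV (37 higher and 1 lower), including the 33 of the reported fit, 2 were called higher in IKK_K171E against EV, and 14 were called in MYD88_L265P against IKK_K171E. For the 44 named genes, no called difference changed sign in any setting, and 194 of the gene-by-setting values lost their call while 33 gained one.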
